A study of Mus musculus with 6 samples.

Results

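The 83 genes described here code for the proteins of the cytosolic ribosome in mouse spinal cord microglia, macrophages that live in the spinal cord tissue. They were taken by symbol: names of the pattern Rpl or Rps followed by a number, together with Rpsa, Rplp0, Rplp1 and Rplp2, without pseudogenes named as such. Of 90 symbols that match, 7 had under 10 counts in 3 or more of the 6 libraries and were dropped (Rpl3l, Rpl6l, Rpl10l, Rpl32l, Rpl39l, Rps3a2 and Rps3a3). The 83 that are left, of 55401 genes in the table, are 49 genes of the large and 34 of the small subunit. They lie on 19 chromosomes. In GENCODE M21, an earlier release than the vM25 used for counting, 81 are protein coding. Rps4l and Rps12l1 are typed there as processed pseudogenes although their symbols carry no such mark. Rps12l1 was too low to be tested, with 10, 10 and 15 counts in NTg and 4, 16 and 4 counts in mutant libraries, so the fold changes below cover 82 genes.

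The libraries came from untreated mice aged 7 months. The control group was non-transgenic C57BL/6 mice (NTg), and the other was heterozygous for 2 human genes, hATXN2-Q33, labelled a knock-in, and hTDP-43 (ATXN2-Q33;TDP-43, called mutants here). The promoter that drives hTDP-43 is not given in the sources used here. CD11b beads, which bind myeloid cells, were used to isolate the cells, every library pooled 3 spinal cords, and each group had 3 libraries (NTg replicates 7, 9 and 11, mutant replicates 8, 10 and 12), so replicates are separate pools of animals. Totals ran from 12553570 to 22854628 counts per library. All 17 listed microglial markers were detected in the table. No listed marker of another cell type was at 0 in all libraries, and the marker values that move with the ribosomal genes are given beside them below. In RNA from many cells, a lower share of a cell type and less RNA per cell cannot be told apart.

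A ribosome has a small subunit, which reads the messenger RNA, and a large subunit, which joins the amino acids. Each is built from ribosomal RNA and from proteins that are mostly present as a single copy per ribosome, so cells make these proteins in matched amounts. Many of their messenger RNAs begin with a stretch of pyrimidines, the 5′ TOP tract, through which mTOR complex 1 controls their translation and stability. Ribosomal protein genes host many small nucleolar RNAs (snoRNAs) in their introns, guides for the modification of other RNAs.

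Start sites from RefSeq (GRCm38.p6) were available for 61 of the 83 genes, as 250 bases before and 50 after the start. The 8 genes printed here were picked by hand, so their counts do not stand for the 61. Their stretches of 60 bases, 30 before and 30 after the start, hold the searched letters in 5 genes and lack them in 3. Of these 3, Rps6 and Rpl22l1 have other runs of pyrimidines at or just after the start. Capitals mark CTTTCC or CTCTTTC on the strand of the gene, and these overlap in Rpl35.
Rpl15 (chr14:18270957-18271016, minus strand): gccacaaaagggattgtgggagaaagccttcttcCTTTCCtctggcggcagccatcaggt
Rpl35 (chr2:39005102-39005161, minus strand): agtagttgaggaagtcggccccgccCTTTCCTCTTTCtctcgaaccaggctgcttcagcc
Rps10 (chr17:27635215-27635274, minus strand): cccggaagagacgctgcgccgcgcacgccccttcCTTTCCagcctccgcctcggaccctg
Rps26 (chr10:128626477-128626536, minus strand): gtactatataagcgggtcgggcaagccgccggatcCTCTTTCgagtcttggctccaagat
Rpl38 (chr11:114668550-114668609, plus strand): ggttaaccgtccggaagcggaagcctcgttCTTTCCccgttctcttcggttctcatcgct
Rps6 (chr4:86857338-86857397, minus strand): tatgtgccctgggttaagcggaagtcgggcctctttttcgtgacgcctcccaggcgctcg
Rpl22l1 (chr3:28805478-28805537, plus strand): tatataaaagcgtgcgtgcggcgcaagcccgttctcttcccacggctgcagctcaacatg
Rpl7l1 (chr17:46782627-46782686, minus strand): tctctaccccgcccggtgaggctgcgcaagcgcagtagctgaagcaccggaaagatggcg

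Over the whole 300-base windows, CTTTCC on the gene's strand was found in 25 of the 61 genes (41.0%), against 16.01% of all 27025 genes with such a window. CTCTTTC was found in 21.3% against 4.60%. On either strand the shares were 52.5% against 29.3% for CTTTCC and 29.5% against 9.28% for the longer one. The letters CCGGAAG, a core of the sites of ETS family factors, lay on either strand in 41.0% against 9.93% of genes. AAGATGG, known from YY1 sites, lay on either strand in 16.4% against 7.28%, and GGGCGG, the GC box, in 63.9% against 38.2%. TATAAA was found on the gene's strand in 9.84% against 9.77%, and on either strand in 11.5% against 15.7%. These are matches of letters and describe no binding.

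The summed level of the genes was set side by side first. They held 1.84%, 1.78% and 1.93% of all counts in NTg replicates 7, 9 and 11, and 1.78%, 1.65% and 1.82% in mutant replicates 8, 10 and 12. Mutant replicate 10 was the lowest library and NTg replicate 11 the highest, and the groups overlapped. The means were 1.85% ± 0.08 and 1.75% ± 0.09 (SD, n = 3 each), a difference of -0.11 percentage points. It was -0.06 without mutant replicate 10, -0.07 without NTg replicate 11 and -0.14 at most when another library was left out.

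Large subunit genes held 1.17% ± 0.05 of the counts in NTg and 1.10% ± 0.06 in mutants, and small subunit genes 0.680% ± 0.03 and 0.646% ± 0.03 (SD, n = 3 each). The ratio of large to small subunit counts was 1.73, 1.72 and 1.73 in NTg and 1.66, 1.71 and 1.73 in mutants. Mutant replicate 8 had the lowest ratio, and Rps3, described below, was at its highest there. In the other 5 libraries the ratio lay between 1.71 and 1.73.

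**Figure D1:**
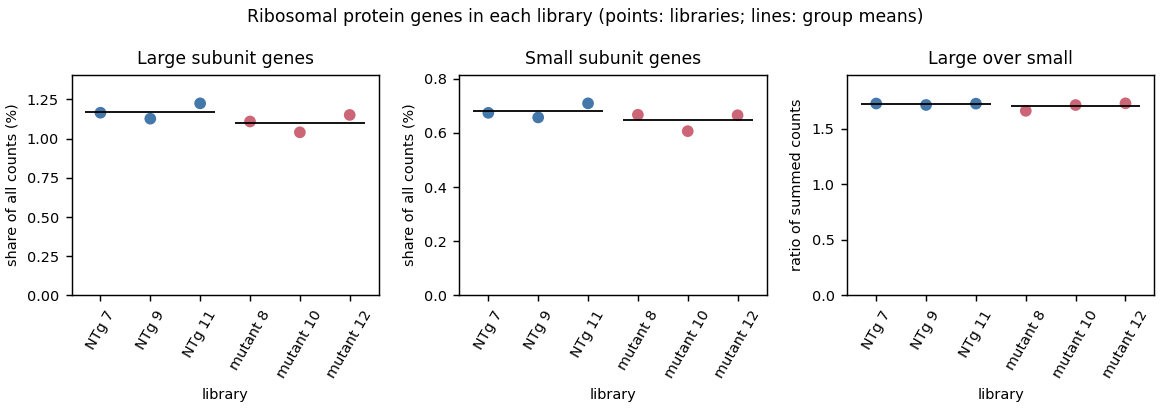
Share of all counts held by large subunit genes and by small subunit genes (%), and the ratio of their summed counts, in each of the 6 libraries; points are libraries (blue NTg, red mutants) and lines are group means. Mutant replicate 10 is the lowest for both subunits, at 1.04% and 0.606%, and the ratios lie between 1.66 and 1.73.

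The contrast between genotypes asks whether the level of any of these genes differed in mutant microglia. By edgeR's quasi-likelihood test, 0 of the 82 genes and 0 of all 16248 genes tested (0.00%) had an adjusted p under 0.05. At an unadjusted p under 0.05 the counts were 1 of 82, Rpl15, and 368 of 16248 (2.26%), and 140 of the 368 were lower in mutants as Rpl15 was (0.862% of genes tested). DESeq2 called 7 genes (0.0431%) and limma voom 0 (0.00%), none of them ribosomal. Their unadjusted counts were 0 of 82 beside 398 genes (2.45%) for DESeq2, and 1 of 82 beside 291 genes (1.79%) for voom. With a block of neighbouring sample codes, which the labels do not name as pairs, 71 genes (0.437%) and 0 of the 82 were called. At an unadjusted p under 0.05 this edgeR fit gave 30 of 82 beside 1401 genes (8.62%). That block sets NTg replicate 9 beside mutant replicate 10, each the highest of its group in oligodendrocyte markers (1691 and 1193 CPM). What this adds to the 30 was not tested. The ribosomal genes moved together, as given below, so 30 genes are not 30 separate observations.

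Fold changes, mutant over NTg, were below 0 for 79 of the 82 genes, a direction taken by 48.0% of all genes tested. The median log2 fold change was -0.11, against 0.01 for all genes. Large subunit genes had a median of -0.10 with 48 of 49 below 0, and small subunit genes -0.11 with 31 of 33 below 0. Single genes ran from -0.24 (Rpl39) to 0.08 (Rps3). The 95% intervals reached a median of 0.23 to either side, and the interval left out 0 for 1 gene. That gene is Rpl15, and its interval comes from the same test as its unadjusted p. In 9 genes (10.98%) every mutant library lay below every NTg library, against 3.58% of all genes, and in 0 genes did the mutants lie above, against 3.27%.

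These genes moved together from library to library, so 79 genes are not 79 separate observations: over the 6 libraries, Pearson's r between the log2 CPM of 2 of them had a median of 0.76 over 3321 pairs (range -0.68 to 0.999; all pairs share the libraries and their scaling). Without mutant replicate 10 the median fold change was -0.04, with 63 genes below 0, and without NTg replicate 11 it was -0.05, with 61 below 0. In the table, NTg replicates 7 and 9 are named as combined alignments and no mutant library is, so NTg replicate 11 is the only NTg library without that name. With the name as a covariate the mutants were in effect compared with NTg replicate 11 alone. The median was then -0.20, and 81 of 82 genes were below 0. Genes with an adjusted p under 0.05 among the 82 numbered 0 in each of these fits.

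**Figure D2:**
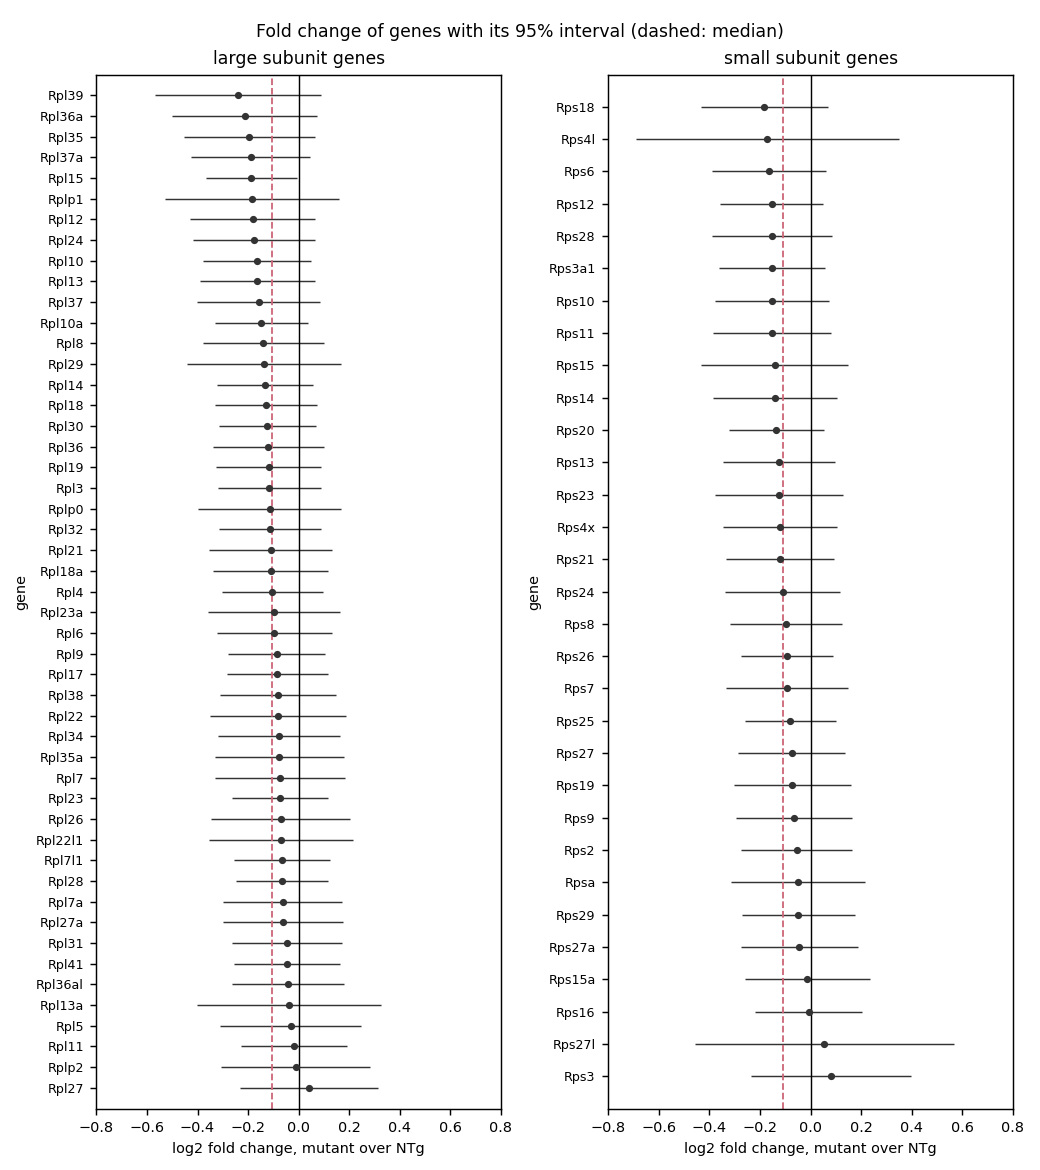
Log2 fold change of 80 of the 82 tested genes, mutant over NTg, with its 95% interval derived from edgeR's F statistic. The large subunit is on the left and the small subunit on the right. The solid line is 0 and the dashed line the median over all tested genes of the subunit. The points above 0 are Rpl27, Rps27l and Rps3, and the interval leaves out 0 for Rpl15.

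Among large subunit genes the smallest p belonged to Rpl15 (ENSMUSG00000012405, mm10 chromosome 14, 18267823 to 18271391), a core protein that is mutated in some families with Diamond-Blackfan anemia. It measured 97.3, 94.1 and 96.3 CPM in NTg, against 80.3, 84.3 and 87.9 CPM in mutants (CPM, counts scaled to a common library size). All 3 mutant libraries lay below the NTg libraries. The means were 95.9 ± 1.64 and 84.2 ± 3.80 CPM (SD, n = 3 each). The log2 fold change was -0.19, with SE 0.08 and a 95% interval of -0.37 to -0.01 (unadjusted p = 0.0429 and adjusted p = 0.9996 by edgeR). Rpl15 is therefore named for its place in the order and was not called. Its fold change ran from -0.22 to -0.15 when single libraries were left out.

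Rpl10a, the protein of the mobile stalk that helps release transfer RNA (mm10 chromosome 17, 28328471 to 28331033), measured 134, 141 and 127 CPM in NTg, against 121, 119 and 122 CPM in mutants. The mutant libraries were close to each other and below all NTg libraries (log2 fold change -0.15, SE 0.08). Rpl37a (mm10 chromosome 1, 72711290 to 72713813), which binds zinc, stood at 76.0, 79.0 and 83.2 CPM and then 74.2, 60.05 and 74.6 CPM. Its groups did not overlap either, and mutant replicate 10 stood apart from the other mutants. The log2 fold change was -0.19 (SE 0.10) with all libraries and -0.10 without mutant replicate 10. Rpl10, which completes the site of peptide bond formation, measured 344, 362 and 394 CPM in NTg, against 324, 307 and 350 CPM in mutants (log2 fold change -0.17, SE 0.09), with overlap at mutant replicate 12. Rpl35, which sits at the exit of the peptide tunnel, measured 215, 194 and 239 CPM in NTg, against 188, 167 and 211 CPM in mutants (log2 fold change -0.20, SE 0.11). Here too mutant replicate 12 lay within the NTg range.

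Among small subunit genes, Rps12 (mm10 chromosome 10, 23785183 to 23787275) measured 221, 219 and 233 CPM in NTg, against 211, 183 and 211 CPM in mutants, without overlap (log2 fold change -0.15, SE 0.09). Rps6, the protein that S6 kinase phosphorylates when mTOR complex 1 is active, measured 421, 390.3 and 447 CPM and then 370.2, 344 and 409 CPM. Its mutant replicate 12 lay within the NTg range (log2 fold change -0.16, SE 0.10). Rps3a1, at the platform of the small subunit, measured 270.1, 286 and 294 CPM in NTg, against 263, 231 and 271 CPM in mutants (log2 fold change -0.15, SE 0.09). Rps18, in the head of the subunit, measured 176, 157 and 185 CPM and then 159, 132 and 167 CPM (log2 fold change -0.18, SE 0.11). In both genes mutant replicate 10 was the lowest library and the groups overlapped. Other genes without overlap included Rps20, Rpl14, Rpl4 and Rps26, with log2 fold changes of -0.14, -0.13, -0.10 and -0.09, and were picked with their values in view.

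Libraries differed in the same way across most of the genes. Mutant replicate 10 was the lowest of the mutants for 78 of the 82 genes and the lowest of all libraries for 70. NTg replicate 9 was the lowest NTg library for 53, NTg replicate 11 the highest for 67, and mutant replicate 12 the highest mutant for 57. These counts cover the ribosomal genes alone, and the shares over all genes tested are not given here. Whether the pattern is particular to the ribosomal genes was not tested. The median log2 CPM of the genes was 7.32, 7.29 and 7.45 in NTg replicates 7, 9 and 11 and 7.22, 7.07 and 7.29 in mutant replicates 8, 10 and 12. Genes with a wide spread within NTg included Rpl13a (18.5%, SD over mean), Rplp2 (16.3%) and Rps4l (15.9%), and for each of these NTg replicate 9 was the lowest NTg library and mutant replicate 10 the lowest mutant. These 3 were picked with their values in view. Rpl13a measured 629, 476 and 691 CPM in NTg, against 607, 487 and 655 CPM in mutants, so its groups overlapped over almost the whole range (log2 fold change -0.04, SE 0.16).

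**Figure D3:**
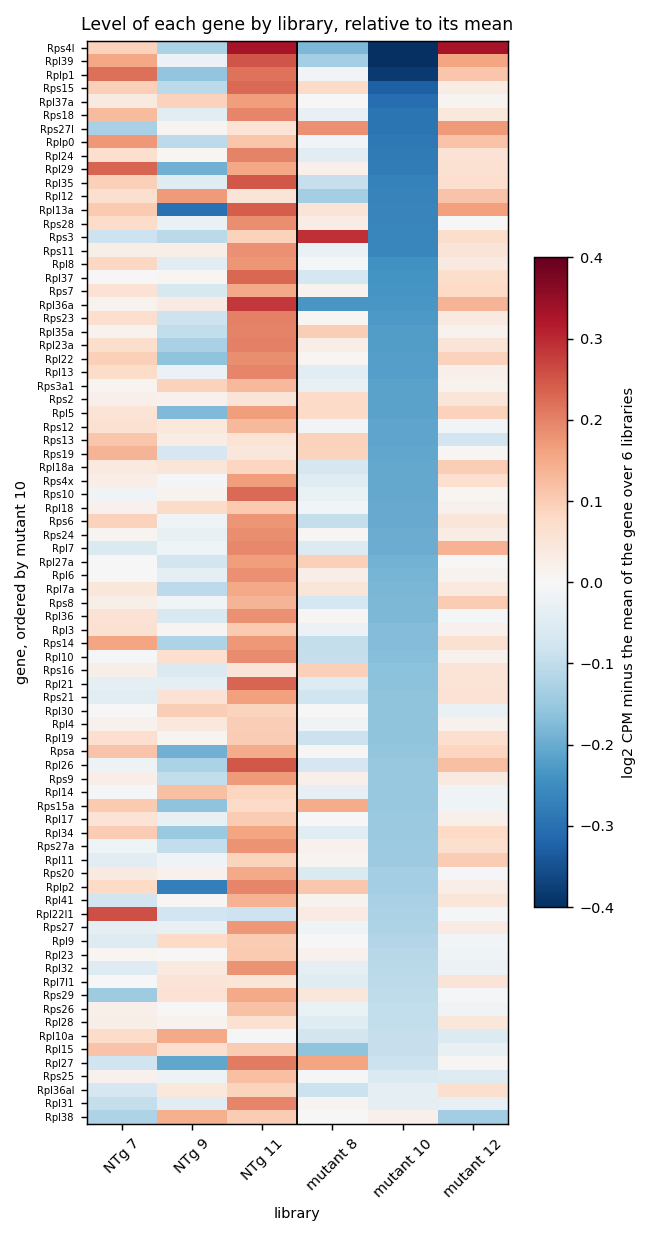
Level of 80 of the 82 tested genes in the 6 libraries, as log2 CPM minus the gene's mean over the libraries, ordered by mutant replicate 10; red is above and blue below the mean, and colours stop at the ends of the scale. The column of mutant replicate 10 is blue for nearly all genes, and that of NTg replicate 11 is mostly red.

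Markers of some other cells moved with the same libraries. The 12 oligodendrocyte markers summed to 187, 1691 and 448.9 CPM in NTg replicates 7, 9 and 11 and to 362, 1193 and 172 CPM in mutant replicates 8, 10 and 12. The 12 endothelial markers summed to 139, 440.0 and 191 CPM and then 236, 462 and 132 CPM. The 13 astrocyte markers summed to 118, 164 and 147 CPM in NTg, against 133, 246 and 174 CPM in mutants. The 11 ependymal markers summed to 15.3, 30.3 and 21.4 CPM in NTg, against 24.3, 88.8 and 44.6 CPM in mutants. Within each group these 4 lists were highest in NTg replicate 9 and mutant replicate 10. The 17 microglial markers summed to 19475, 17565 and 22006 CPM in NTg, against 19248, 15485 and 22403 CPM in mutants, lowest in these 2 libraries. Neutrophil markers summed to 700.2, 184 and 439 CPM in NTg, against 1879, 1168 and 62.9 CPM in mutants. Within their group, markers of neutrophils, neurons, monocytes, B cells and erythroid cells were highest in neither NTg replicate 9 nor mutant replicate 10. Summed ribosomal counts divided by summed microglial marker counts were 0.955, 0.985 and 0.911 in NTg and 0.938, 1.01 and 0.833 in mutants, so on that scale mutant replicate 10 was the highest library and mutant replicate 12 the lowest. Without NTg replicate 9 and mutant replicate 10 the median log2 fold change of the ribosomal genes was -0.07, with 76 genes below 0. The part of other cell types in the result was not tested beyond this.

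Rps3, at the entry of the messenger RNA channel and also known from DNA repair, had the highest fold change of the 82 (ENSMUSG00000030744, mm10 chromosome 7, 99477896 to 99483738). It measured 650.0, 639 and 733 CPM in NTg, against 843, 574 and 723 CPM in mutants. Mutant replicate 8 was the highest library and mutant replicate 10 the lowest, so the mutants spanned the NTg range (log2 fold change 0.08, SE 0.14, 95% interval -0.24 to 0.40). Without mutant replicate 8 the log2 fold change was -0.05. With combined alignments as a covariate, in effect against NTg replicate 11 alone, it was -0.04. An annotated exon of Rps3 holds the whole snoRNA gene Snord15b (chr7:99479563-99479707, minus strand), and a fragment that overlaps both genes was counted for each. Snord15b is a C/D box snoRNA, and capitals mark its TGATGA and CTGA letters, near the start and the end.
Snord15b: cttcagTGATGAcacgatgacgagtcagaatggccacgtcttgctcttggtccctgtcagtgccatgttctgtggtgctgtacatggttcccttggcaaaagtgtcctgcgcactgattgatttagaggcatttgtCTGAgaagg

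Snord15b had 4580, 5304 and 9381 counts in NTg replicates 7, 9 and 11 and 7465, 4825 and 8263 counts in mutant replicates 8, 10 and 12. These were 56.7%, 54.6% and 58.1% of the counts of Rps3 in NTg and 65.7%, 57.0% and 59.3% in mutants. Mutant replicate 8 had the highest share. With the snoRNA counts taken off, an alternative chosen after the data were seen, Rps3 measured 281, 290.2 and 308 CPM in NTg, against 289, 247 and 294 CPM in mutants. Mutant replicate 8 then lay within the NTg range, and the log2 fold change was -0.08 (SE 0.10, 95% interval -0.30 to 0.14). With such counts taken off all genes, 80 of 82 fold changes were below 0 and the median stayed at -0.11.

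**Figure D4:**
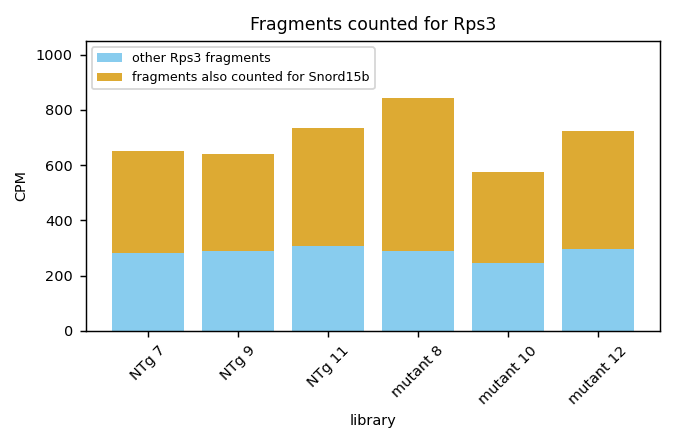
Fragments counted for Rps3 in each of the 6 libraries, in CPM; the upper part of a bar is the number also counted for Snord15b and the lower part the rest. The lower parts lie between 247 and 308 CPM, and mutant replicate 8 has the largest upper part, 554 CPM.

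In the other genes snoRNA counts made up less of the total than in Rps3. In all, 59 snoRNA genes lie inside 30 of the 83 genes, and 30 of them share exon bases with 24. Snora65 made up 5.76% to 12.97% of the counts of Rpl12 and Snora7a 6.68% to 10.2% of those of Rpl32. The 3 snoRNA genes in exons of Rps12 together made up 5.75% to 9.55% of its counts. Of the 59 hosted snoRNA genes 55 were tested and 0 were called (edgeR; 1 at an unadjusted p under 0.05, or 1.82%, against 2.26% of all genes tested). Their log2 fold changes had a median of 0.11, with 39 above 0 and 16 below, and 3 were higher in all mutants (5.45%, against 3.27% of all genes tested and 6.28% of the snoRNA genes elsewhere). Snora7a is 1 of these 3, with 10.8, 11.4 and 11.7 CPM in NTg, against 15.4, 14.4 and 13.3 CPM in mutants. Its log2 fold change was 0.34 (SE 0.15, edgeR unadjusted p = 0.0423), and its host Rpl32 measured -0.11 (SE 0.09). Fragments of Snora7a were also counted for Rpl32, which measured -0.16 (SE 0.09) with snoRNA counts taken off. The 191 snoRNA genes tested elsewhere had a median of 0.13, with 117 above 0 (61.3%, against 70.9% of the hosted ones).

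On the same strand, 9 genes of other types share exon bases with 7 of the ribosomal genes, and fragments over both were counted for each here too. The microRNA gene Gm27597 lies whole in an exon of Rpl19, and its counts were 49.7% to 55.9% of those of Rpl19 over the 6 libraries. Mir5121, whole in an exon of Rpl13a, had 34.2% to 37.9% of the counts of that gene. Other genes that share only part of their exons included Gm45713 with Rpl13a, Gm28037 with Rpl24, Gm49383 with Rpl36al and RPS10-NUDT3 with Rps10. Their counts were 95.4% to 96.95%, 112% to 117%, 100.2% to 105% and 123% to 131% of those of the ribosomal gene. How many of these fragments belong to either gene was not tested, and these counts were not taken off.

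The acidic stalk of the large subunit, which recruits elongation factors, is made of Rplp0, Rplp1 and Rplp2. Rplp0, its base, measured 547, 451 and 524 CPM in NTg, against 482, 398 and 526 CPM in mutants (log2 fold change -0.12, SE 0.13). Rplp1 measured 560.2, 431 and 559 CPM and then 477, 369 and 519 CPM (log2 fold change -0.18, SE 0.15). Rplp2 measured 395, 309 and 427 CPM and then 402, 339.6 and 379.97 CPM (log2 fold change -0.01, SE 0.13). In all 3 genes NTg replicate 9 was the lowest NTg library, mutant replicate 10 the lowest mutant, and the groups overlapped. Rplp2 had the opposite sign when NTg replicate 7, NTg replicate 11 or mutant replicate 10 was left out (0.02, 0.09 and 0.05). Rpsa, the small subunit protein also known as the laminin receptor, measured 688, 556 and 704 CPM in NTg, against 637, 569.9 and 674 CPM in mutants (log2 fold change -0.05, SE 0.12), with the same low libraries.

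Besides Rps3, 2 genes had a fold change above 0. Rpl27, another gene of Diamond-Blackfan anemia, measured 88.8, 81.3 and 108 CPM in NTg, against 105, 88.4 and 94.0 CPM in mutants (log2 fold change 0.04, SE 0.12). All mutant libraries lay within the NTg range, and without NTg replicate 9 the value was -0.05 and without mutant replicate 8 it was -0.02. Rps27l, a p53 target, measured 5.32, 5.86 and 6.04 CPM in NTg, against 6.60, 4.75 and 6.54 CPM in mutants (log2 fold change 0.06, SE 0.23). Its mutant libraries spanned the NTg range, and the value was -0.02 without mutant replicate 8 and without mutant replicate 12. With combined alignments as a covariate, in effect against NTg replicate 11 alone, both genes were below 0, at -0.18 and -0.02.

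Levels between genes were compared as CPM per kilobase of the exon length in the table. In NTg the large subunit genes had a median of 113 CPM per kilobase (range 15.03 to 1035) and the small subunit genes 107 (range 7.03 to 427). The ratio of the medians was 1.06, and 1.07 per kilobase of coding sequence. Rplp1 stood highest at 1035 ± 149.5 CPM per kilobase (SD, n = 3), beyond the spread of the next gene. Small subunit gene Rps23, which contacts the decoding site, followed at 427 ± 42.2 and Rpl23a, which docks factors at the tunnel exit, at 405 ± 46.3. Those 2 did not differ beyond their spread, nor did Rpl23a from Rpl26, also at the tunnel exit, at 347 ± 47.7. By library, Rps23 measured 541, 488 and 595 CPM in NTg, against 519.9, 441 and 530.0 CPM in mutants, with overlap (log2 fold change -0.12, SE 0.11). Rps3a1 at 289.96 ± 12.3 and Rps6 at 264 ± 17.8 were the next small subunit genes. The table's length joins all annotated exons, so a gene with long minor transcripts is placed too low. Across the genes the order per exon length and per coding length had a Spearman rho of 0.71 (81 genes, a description). By coding length Rpl26 ranked 3 and Rpl23a 12.

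At the low end, Rpl22l1, Rpl7l1 and Rpl36al were the lowest large subunit genes, at 15.03 ± 2.10, 17.6 ± 0.333 and 28.0 ± 1.56 CPM per kilobase in NTg (SD, n = 3 each). Rps27l, Rps4l and Rps15a were the lowest small subunit genes, at 7.03 ± 0.461, 12.03 ± 1.91 and 18.3 ± 1.80. Of these 6, all but Rps15a are copies of another ribosomal gene. Rps15a had the longest exon length of the tested genes, 6270 bases, with 390 of coding sequence, so it may be placed too low. Rps15a, a protein of the subunit's body, measured 122, 102 and 119.8 CPM in NTg, against 126, 102 and 112 CPM in mutants, with overlap (log2 fold change -0.01, SE 0.11).

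Ribosomal protein genes have many processed pseudogenes, and by the options in the table's header a read that aligns to several places was not counted. In the median gene 48.8% of the 50-base windows of its transcript also occur in a transcript from another place in the genome. The share was 98.6% in Rps27, 93.3% in Rpl9 and 92.1% in Rpl10, and 2.96% in Rps3. Levels of genes with a high share may be counted too low, by an amount that was not tested. The share and the level per kilobase of exon had a Spearman rho of 0.17, and with the level per kilobase of coding sequence it was -0.07. The share and the log2 fold change had a rho of -0.16. All 3 are descriptions over genes of the same libraries.

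A total of 5 genes and their copies could be compared as a ratio of counts within a library, which needs no scaling. Rps27 and Rps27l, zinc-binding proteins of the small subunit, show how far such pairs differ. The first 90 bases of their coding sequences (GENCODE M21 transcripts) are printed because this part tells the pair apart. Capitals mark the 24 positions that differ.
Rps27: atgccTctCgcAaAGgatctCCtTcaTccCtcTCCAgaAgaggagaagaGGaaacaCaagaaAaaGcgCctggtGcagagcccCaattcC
Rps27l: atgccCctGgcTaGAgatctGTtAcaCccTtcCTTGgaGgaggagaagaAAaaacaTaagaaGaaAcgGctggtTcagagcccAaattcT

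Counts of Rps27l were 4.44%, 4.87% and 4.35% of those of Rps27 in NTg and 5.44%, 4.22% and 5.21% in mutants. Mutant replicates 8 and 12 were above the NTg libraries and mutant replicate 10 below, so the groups overlapped. The log2 difference was 0.11 (exact two-sided permutation p = 0.4, adjusted over 5 pairs 0.9). Per kilobase, Rps27l measured 7.03 and Rps27 121 CPM in NTg. Windows of 50 bases found elsewhere made up 98.6% of Rps27 and 13.7% of Rps27l. Rps27 may thus be counted too low and this ratio be too high, by an amount that was not tested.

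Rpl36al, a copy of Rpl36a, a protein near the exit site for transfer RNA, had the largest difference. Its counts were 45.9%, 48.8% and 42.5% of those of Rpl36a in NTg and 53.8%, 55.4% and 46.2% in mutants. Mutant replicates 8 and 10 lay above all NTg libraries and mutant replicate 12 within them. The means were 45.7% ± 3.18 and 51.8% ± 4.95 (SD, n = 3 each), a log2 difference of 0.18 (exact two-sided permutation p = 0.2, adjusted 0.9; 0.13 to 0.26 when single libraries were left out). Rpl36a measured 77.6, 78.7 and 93.5 CPM in NTg, against 65.4, 65.5 and 84.5 CPM in mutants, and Rpl36al 35.6, 38.4 and 39.7 CPM and then 35.2, 36.3 and 39.0 CPM. The coding sequences of the pair are 87.7% identical. The share of 50-base windows found elsewhere was 85.5% in Rpl36a and 46.5% in Rpl36al.

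Rpl7l1, which is known from the assembly of the large subunit, measured 17.9% ± 1.45 of Rpl7 in NTg and 17.98% ± 1.12 in mutants. Rpl22l1 measured 16.1% ± 2.45 and 16.2% ± 1.08 of Rpl22, which is known to repress this copy. Rps4l measured 4.14% ± 0.407 and 3.97% ± 0.748 of Rps4x (SD, n = 3 each throughout). The log2 differences were 0.01, 0.02 and -0.07, and exact two-sided permutation tests gave p = 0.9, 0.9 and 0.7, each 0.9 after adjustment over the 5 pairs. The smallest p that 3 against 3 libraries allow is 0.1, so no pair could have passed 0.05. Groups overlapped in every pair. The shares of 50-base windows found elsewhere were 53.3% in Rpl7 and 9.03% in Rpl7l1. They were 24.5% in Rpl22 and 57.3% in Rpl22l1, and 72.2% in Rps4x and 14.9% in Rps4l. Identity over aligned coding bases was 62.6% for Rpl7 and Rpl7l1, 70.2% for Rpl22 and Rpl22l1 and 76.2% for Rps27 and Rps27l. Rps4l and Rps12l1 have no annotated coding sequence, so their whole transcripts were aligned locally to the parent's coding sequence. Identity within the aligned stretch was 80.1% for Rps4x and Rps4l and 99.2% for Rps12 and Rps12l1. All 50-base windows of Rps12l1 (100%) occur elsewhere, so its counts of 4 to 16 are uncertain.

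**Figure D5:**
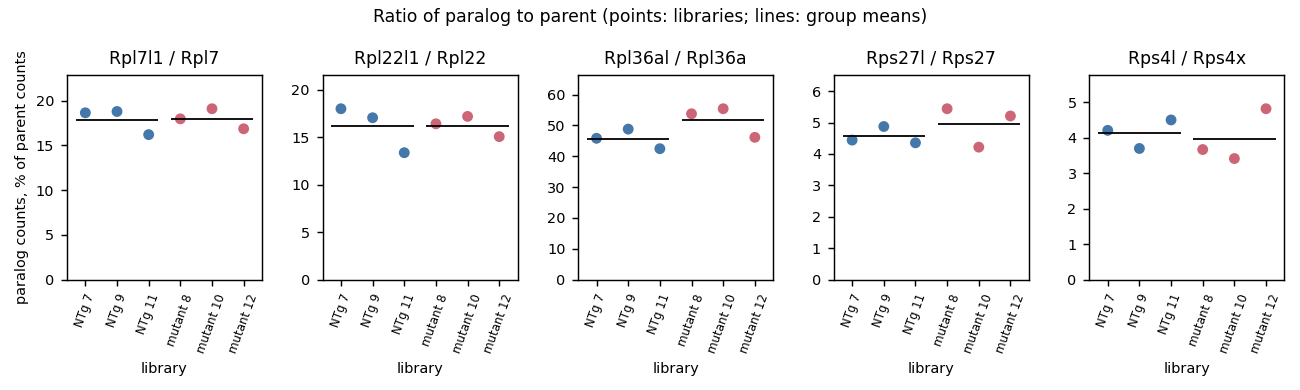
Counts of 5 ribosomal protein gene copies as a percentage of the counts of their parent gene in each of the 6 libraries; points are libraries (blue NTg, red mutants) and lines are group means. The means lie close together for Rpl7l1 and Rpl22l1, and Rpl36al shows 45.7% against 51.8% with overlap between the groups.

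Other genes of the pathway were read from lists of translation and ribosome assembly. In each list edgeR called 0 genes. Of 27 other genes with a TOP tract or acting on nascent chains, 25 were below 0, with a median log2 fold change of -0.08. Those with the smallest p were Eif3h, a subunit of initiation factor 3 (68.9, 73.8 and 79.4 CPM in NTg, 66.2, 63.8 and 69.3 CPM in mutants), and Npm1, the nucleolar chaperone nucleophosmin (236, 202 and 226 CPM, then 199, 188 and 209 CPM). Both log2 fold changes were -0.16, with SE 0.09 and overlapping groups. Of 41 initiation factors 29 were below 0 (median -0.05), of 15 elongation and termination factors 9 (median -0.06), and of 75 ribosome assembly factors 52 (median -0.06). Eif6, which keeps a new large subunit from joining too early, measured 48.5, 49.0 and 40.3 CPM in NTg, against 40.7, 40.7 and 38.7 CPM in mutants (log2 fold change -0.20, SE 0.10), with NTg replicate 11 among the mutants. Nhp2, a core protein of H/ACA snoRNA particles, measured 29.7, 33.1 and 28.3 CPM in NTg, against 22.2, 28.9 and 24.6 CPM in mutants (log2 fold change -0.27, SE 0.13), and overlapped at mutant replicate 10. For RNA polymerase I and its factors it was 7 of 17 (median 0.01), and for ribosome quality control and its link to p53, 6 of 16 (median 0.03).

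In the list of mTOR complex 1 and Myc 16 of 28 genes were below 0 (median -0.03). Rragc, a Rag GTPase that brings mTOR complex 1 to the lysosome, measured 127, 126 and 124 CPM in NTg, against 107, 102 and 105 CPM in mutants, without overlap. Its log2 fold change was -0.26 (SE 0.08, edgeR unadjusted p = 0.00762, adjusted p = 0.9996). Myc, which drives ribosome production, measured 99.6, 108 and 76.5 CPM in NTg, against 78.0, 83.1 and 77.7 CPM in mutants (log2 fold change -0.25, SE 0.13), with NTg replicate 11 below all mutants. Messenger RNAs encoded in the mitochondrial genome, which are translated by other ribosomes, were below 0 for 10 of 13, with a median of -0.11, the same to 2 decimals as that of the cytosolic ribosomal genes.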

How the data were processed

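Total RNA went through ribosomal RNA depletion and a stranded low-input kit, per the labels' protocols. Reads were trimmed with Trim Galore 0.4.1 and aligned with TopHat2 to mm10, per the submitters' processing notes. The authors deposited unnormalized counts of fragments for every gene (featureCounts 1.6.1, GENCODE vM25, strand setting 2, fragments counted for every gene they overlap), per the file headers; 6 columns of other samples were not used. Symbols matched 55141 of 55401 genes. Counts were filtered with filterByExpr (minimum count 10), leaving 16248 genes, and fitted in edgeR 4.0.16 under R 4.3.3 (TMM, robust quasi-likelihood, Benjamini-Hochberg over all genes, threshold 0.05), checked on simulated counts. Alternatives used limma 3.58.1 (voom) and DESeq2 1.42.0. CPM uses TMM-scaled library sizes. Paralog ratios used exact permutation tests. Sequences came from GENCODE M21 transcripts and RefSeq, and gene types from GENCODE M21.

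The genes and lists were chosen with earlier results of these data known. Named in the text were the stalk genes and Rpsa, testable paralog pairs, the 5 smallest p, the 3 highest and 3 lowest per length of each subunit, genes against the median's direction, and the 2 smallest p of each other list, of which some are left out. Some results are not reported here.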

Additional observations from a re-analysis of the deposited data

How the results depend on the processing

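Ribosomal protein genes called numbered 0 under all 18 alternatives. The count of all genes called was 0 with all libraries and 7 with DESeq2, 6 without a filter, 71 with a block of neighbouring sample codes and 1 without both replicates 9 and 10, and ran from 0 to 2 when each library was left out (2 without ATXN2-Q33;TDP-43 replicate 12). No paired analysis was possible because the groups share no replicate number. The block of neighbouring codes, which the labels do not name as pairs, gave a median of -0.11. In that edgeR fit 30 of 82 ribosomal genes had an unadjusted p under 0.05, beside 1401 of 16248 genes (8.62%). The block joins NTg replicate 9 and mutant replicate 10, each the highest of its group in oligodendrocyte markers. What this adds to the 30 was not tested. The median of the small subunit was -0.20 with combined alignments as a covariate, against -0.11. In that fit the mutants were in effect compared with NTg replicate 11 alone, so the part of the combined alignments was not tested. Leaving out each library gave medians of -0.15 to -0.04 for all genes of the ribosome. Of 30 named genes, 19 kept 1 direction under every alternative and 6 changed sign only when a library was left out. With the covariate, Rpl22l1 was 0.053, Rpl27 -0.18, Rps27l -0.017 and Rps3 -0.040. Rplp2 was 0.00042 under the stricter filter of 50 counts, and Rps3 was -0.082 with snoRNA counts taken off. Changes of sign on leaving out a library lay within these ranges: Rpl22l1 -0.13 to 0.048, Rplp2 -0.14 to 0.094, Rps15a -0.095 to 0.055, Rpl27 -0.047 to 0.17, Rpl26 -0.15 to 0.049, Rpl7 -0.17 to 0.0097, Rps27 -0.11 to 0.0027, Rpsa -0.15 to 0.016, Rps27l -0.020 to 0.19, Rps3 -0.053 to 0.22 and Rpl22 -0.18 to 0.0026. Paralog differences ran from -0.060 to 0.054 (Rpl7l1), -0.11 to 0.10 (Rpl22l1) and -0.22 to 0.028 (Rps4l). Coding lengths from RefSeq proteins were not used here; GENCODE coding lengths, chosen after seeing the data, stood in for them.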

Other observations

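Genes named as pseudogenes of ribosomal protein genes, which are not among the 83 genes, had at least 10 counts in 2 or more libraries in 35 cases, and 27 of them were tested. Of these 14 had a log2 fold change below 0. Rps23-ps1 (mm10 chromosome 3, 37714740 to 37715164) had 318, 304 and 750 counts in NTg replicates 7, 9 and 11 and 310, 301 and 568 counts in mutant replicates 8, 10 and 12. Rpl27-ps2 (chromosome 11, 101939501 to 101939899) had 51 and 68 counts in NTg replicates 7 and 9, the libraries named as combined alignments, and 5, 1, 2 and 6 counts in NTg replicate 11 and the mutant replicates. With so few libraries above the minimum it did not pass the filter and was not tested. These 2 pseudogenes were named after their values were seen, and how far such reads belong to the parent genes was not tested.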
